A study of Mus musculus with 6 samples.

Results

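The nuclear-encoded subunits of the mitochondrial respiratory chain and ATP synthase were followed in embryonic mouse submandibular glands treated with blebbistatin. Members were rows of the deposited gene table chosen by symbol. The whole symbol had to be Nduf with a, b, c, s or v and a number, Sdha to Sdhd, or Cyc1. Cox4 to Cox8 could be followed only by an optional a, b or c, a digit and a letter. Any symbol that begins with Uqcr, or with Atp5 and a letter, was also taken. This symbol rule used no measured value and found 82 of the 24067 genes in the table. By complex, 36 belonged to complex I, 4 to complex II, 9 to complex III, 16 to complex IV and 17 to complex V, the ATP synthase. Ndufa4, which the rule counts under complex I, is now placed in complex IV. Cox7a2l is a factor of respiratory supercomplexes, and Atp5s and Atp5sl are not subunits of the synthase proper. Symbols such as Ndufab1, Cox4i1 and Cycs fall outside the rule and were described separately.

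There were 3 Blebbistatin and 3 Control libraries, made from the submandibular glands of embryonic day 13 embryos of the ICR strain. Blebbistatin is an inhibitor of non-muscle myosin II, the motor that contracts the actin cytoskeleton, and the series is titled for epithelial buds. No genetic change is named in either group. Neither the blebbistatin dose nor its duration, the control vehicle or how many glands went into a library is given in the labels. The labels do not say whether replicates are separate animals or cultures. The p-values here therefore set group differences against the spread of these particular libraries, and part of that spread may be technical.

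Complexes I to IV pass electrons from NADH and succinate to oxygen and complexes I, III and IV pump protons across the inner mitochondrial membrane, while complex V uses that gradient to make ATP. Most subunits are encoded in the nucleus and imported, and a small core is encoded by the mitochondrial genome. The nuclear genes are known to be expressed together, and the transcription factors NRF1, GABP, YY1 and the estrogen-related receptors are known to bind many of their promoters. None of the 26 symbols searched for mitochondrially encoded subunits was in the gene table, so that core is not analysed here.

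Values were FPKM, the fragments per kilobase of transcript, scaled to the mapped total of a library. From the smallest steps between values of long genes, and assuming fragments of 200 nt, the depth was estimated at 28500000 to 29200000 fragments in the Blebbistatin libraries and 29200000 to 35100000 in the Control libraries. Between 11453 and 11592 genes reached 1 FPKM in a library. At this depth the median member had an estimated 2926 fragments, which gives a counting error of 1.85%. The tested member with the fewest, Cox7a1, had an estimated 16.35 fragments and a counting error of 24.7%. These counts used the full transcript length, whereas the depth used the length less 200 nt. The counts may therefore be too high for short members, and their counting errors too low. Control 1 and Control 2 stood apart from the other libraries in their relation to transcript length, in opposite directions. Across 11540 genes, the deviation of a library from the mean of all 6 correlated with log2 transcript length at Pearson r = -0.371 and Spearman rho = -0.504 in Control 1. In Control 2 they were r = 0.231 and rho = 0.445, and in Control 3 r = 0.090 and rho = 0.197. In the 3 Blebbistatin libraries r lay between -0.005 and 0.049 and rho between -0.040 and 0.079. These correlations run across genes of 1 library, which are not independent replicates.

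The tissue label was checked against marker genes. All 6 epithelial markers and all 5 end-bud markers exceeded 1 FPKM on average, as did 4 of 8 mesenchymal markers, while Lum, Pdgfra, Pdgfrb and Twist1 did not. None of 5 endothelial, 5 neuronal and 5 skeletal muscle markers reached 1 FPKM. Of the erythroid markers 3 of 5 did, of the leukocyte markers 1 of 4, and of the Schwann cell markers 2 of 4. The summed epithelial markers lay between 1182 and 1517 FPKM in Blebbistatin and between 1252 and 1565 FPKM in Control, and the summed mesenchymal markers between 334.9 and 373.7 FPKM in Blebbistatin and between 280.5 and 355.6 FPKM in Control. The end-bud markers (Sox10, Sox9, Kit, Cldn10 and Etv5) summed to between 462.3 and 579.5 FPKM in Blebbistatin and between 692.2 and 772.1 FPKM in Control, and the Schwann cell markers, whose Erbb3 is also an epithelial gene, to between 64.3 and 77.2 FPKM in Blebbistatin and between 93.3 and 115.7 FPKM in Control. Summed erythroid markers ranged from 1.09 to 59.7 FPKM in Blebbistatin and from 1.94 to 193.6 FPKM in Control. The part of these markers in the values of the respiratory chain genes was not tested. With regard to the epithelial buds of the series title these markers were mixed. All endothelial and neuronal markers were under 1 FPKM. However, 4 of 8 mesenchymal, 3 of 5 erythroid, 2 of 4 Schwann cell and 1 of 4 leukocyte markers were not. Whether the epithelium was isolated was not tested. In RNA pooled from many cells, fewer cells of a type and less RNA per cell cannot be told apart.

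Of the 82 members, 78 averaged at least 1 FPKM over the 6 libraries and were tested. The other four, Cox6a2, Cox7b2, Cox8b and Cox8c, are tissue-restricted isoforms of complex IV. The levels below are per length, so genes can be set side by side. Such comparisons are approximate, since the libraries differed in their relation to transcript length. ATP synthase and complex IV genes had the highest typical levels. The median member averaged 259.9 FPKM in complex V and 228.7 FPKM among the 12 tested members of complex IV. The median was 160.7 FPKM in complex III, 82.7 FPKM in complex II and 77.9 FPKM in complex I. Within complexes the spread was wide: complex I ran from 22.6 FPKM (Ndufa11) to 299.6 FPKM (Ndufa4), and complex V from 3.06 FPKM (Atp5s) to 647.4 FPKM (Atp5b). Complex II was the most even, with its 4 genes between 65.4 FPKM (Sdha) and 101.2 FPKM (Sdhb), and complex III ran from 92.0 FPKM (Uqcrfs1) to 361.9 FPKM (Uqcrh).

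**Figure D1:**
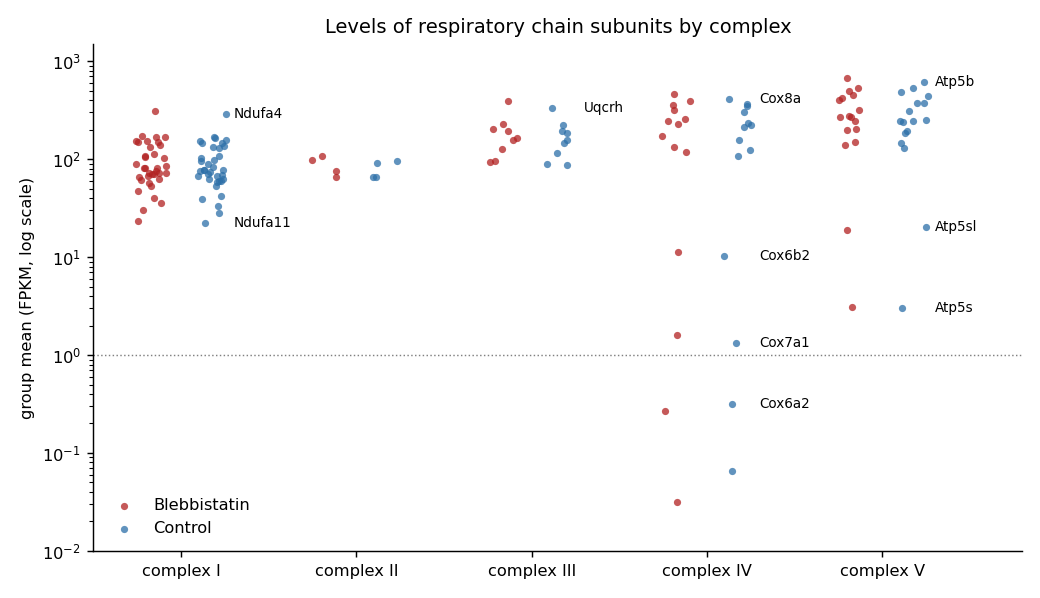
Mean FPKM (log axis) of each member in the 3 Blebbistatin libraries and the 3 Control libraries, by complex, with a dotted line at 1 FPKM. Averaged over both groups, complex V runs from 3.06 FPKM (Atp5s) to 647.4 FPKM (Atp5b), and group means of 0 (Cox8c in both groups, Cox8b in Blebbistatin, Cox7b2 in Control) cannot be drawn on a log axis.

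Complex IV has paralogous subunits known for use in particular tissues, and the glands carried the widely expressed form in both groups. Cox6a1, the widely expressed form, had 394.7, 359.0 and 316.4 FPKM in Blebbistatin and 423.8, 328.9 and 306.0 FPKM in Control. Its heart and skeletal muscle paralog Cox6a2 had 0.0714, 0.432 and 0.293 FPKM in Blebbistatin and 0.140, 0.243 and 0.571 FPKM in Control. Cox6a1 therefore held 99.88% to 99.98% of the pair's summed FPKM in Blebbistatin and 99.81% to 99.97% in Control. Cox6b1 averaged 391 ± 15.8 FPKM in Blebbistatin and 362 ± 48.5 FPKM in Control (SD, n = 3 each). The testis form Cox6b2 had 13.4, 10.5 and 10.1 FPKM in Blebbistatin and 12.2, 8.95 and 9.62 FPKM in Control, a share of the pair of 2.52% to 3.31% in Blebbistatin and 2.50% to 2.90% in Control. These shares overlapped between the groups. Cox7a2 had 143, 136 and 121 FPKM in Blebbistatin and 166, 103 and 102 FPKM in Control, whereas Cox7a1, its heart and muscle paralog, stayed near 1 FPKM, with 1.50, 2.13 and 1.16 FPKM in Blebbistatin and 1.25, 1.81 and 0.961 FPKM in Control. Cox8b, the muscle form of subunit 8, was listed at 0 in every library except Control 3 (0.196 FPKM), and Cox8c, the testis form, was listed at 0 in all 6. The skeletal muscle markers Myod1, Myog, Actc1, Acta1 and Ttn together summed to between 0.0923 and 0.262 FPKM in Blebbistatin and between 0.320 and 4.85 FPKM in Control.

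The membrane ring of the ATP synthase is built from subunit c, which Atp5g1, Atp5g2 and Atp5g3 encode as the same mature protein behind different import sequences. Atp5g2 gave the most, with 525, 555 and 524 FPKM in Blebbistatin and 625, 486 and 495 FPKM in Control. Atp5g3 had 417, 438 and 406 FPKM in Blebbistatin and 425, 365 and 339 FPKM in Control. Atp5g1 was lowest, at 152, 161 and 140.2 FPKM in Blebbistatin and 179, 135 and 125 FPKM in Control. As a share of their sum, Atp5g2 held 47.97% to 48.95% in Blebbistatin and 49.3% to 51.59% in Control, and Atp5g3 held 37.95% to 38.1% in Blebbistatin and 34.58% to 36.99% in Control. Neither pair of ranges overlapped, though no test of these shares was made and the groups hold 3 libraries each. The shares are parts of the same sum, so they are not separate observations. How often such shares separate the groups in other gene families was not counted. The Atp5g1 share overlapped, at 13.09% to 13.96% in Blebbistatin and 13.05% to 14.55% in Control. Log2 fold changes of the genes themselves were 0.01 ± 0.13 for Atp5g2, 0.17 ± 0.11 for Atp5g3 and 0.06 ± 0.14 for Atp5g1 (Blebbistatin minus Control, SE). Related copies such as these, and processed pseudogenes of many members, can share reads, so the split between them is uncertain.

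Promoters are shown for some members that carry the best-known sites of this gene family. Any part of these sites in the differences between libraries was not tested. RefSeq promoters (GRCm38.p6, the build mm10) were found for 67 of the 78 tested members, 73 promoters in all, each from 250 bases before to 50 after the start. Both strands were searched. The NRF1 motif GCGCATGCG was in 8 member genes (11.9%), against 4.39% of 9252 tested genes with a promoter. The YY1 motif AAGATGGC was in 11 (16.4%, against 5.58%) and the estrogen-related receptor motif TCAAGGTCA in 2 (2.99%, against 0.324%). The ETS motif bound by GABP, CCGGAAGT, was in 5 (7.46%, against 9.79%), and the SP motif CCCGCCCC in 19 (28.4%, against 37%). Over all 27025 genes of the promoter table the shares were 1.95% for NRF1, 3.19% for YY1, 0.466% for estrogen-related receptors, 4.31% for ETS and 18.4% for SP. A match is a description of the letters, not a shown binding site. The 120 bases directly before the start are given 5′ to 3′ on the gene's strand, with matches in capitals. The first 4 genes hold the NRF1 motif. Where 10 letters are capitals, forward and reverse matches overlap. Ndufa8 also holds the SP motif, and Uqcrh, the complex III gene followed below, holds the ETS motif.
Atp5g2, chr15:102671048-102671167, minus strand: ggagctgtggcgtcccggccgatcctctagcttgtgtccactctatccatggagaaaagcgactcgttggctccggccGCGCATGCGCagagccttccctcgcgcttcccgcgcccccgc
Atp5k, chr5:108434400-108434519, minus strand: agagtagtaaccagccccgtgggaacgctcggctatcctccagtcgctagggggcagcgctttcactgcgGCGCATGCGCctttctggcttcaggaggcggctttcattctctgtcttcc
Ndufa11, chr17:56717642-56717761, plus strand: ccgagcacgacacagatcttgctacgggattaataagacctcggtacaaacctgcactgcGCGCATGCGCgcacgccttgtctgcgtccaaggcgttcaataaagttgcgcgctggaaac
Ndufa8, chr2:36049339-36049458, minus strand: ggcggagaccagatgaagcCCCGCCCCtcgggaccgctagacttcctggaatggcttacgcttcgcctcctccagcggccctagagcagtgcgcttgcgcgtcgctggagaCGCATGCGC
Uqcrh, chr4:116075071-116075190, minus strand: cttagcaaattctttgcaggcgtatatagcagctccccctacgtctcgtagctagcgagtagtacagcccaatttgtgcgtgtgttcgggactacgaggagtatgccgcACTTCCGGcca

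Blebbistatin and Control glands were then compared gene by gene. No member passed the test: limma on log2(FPKM + 1), adjusted by Benjamini-Hochberg over all 11540 genes tested, called 0 of 78 members, against 9 genes or 0.078% of all. At an unadjusted p under 0.05 the count was also 0 of 78 members, against 9.36% of all genes. Nor did the 3 Blebbistatin values of any member lie wholly above the Control values, against 7.48% of all genes, or wholly below them, against 6.8%. The direction was nevertheless shared. The log2 fold change was positive, that is higher in Blebbistatin, for 72 of 78 members (92.3%), against 55.2% of all genes, and higher and lower below refer to its sign. By the mean FPKM itself 70 members were higher, since Atp5g2 and Ndufs7 had nearly equal means. The median log2 fold change was 0.09 over members and 0.01 over all genes. Members are not independent of one another, and no test of the list was made. Single fold changes lay between -0.13 (Ndufv3) and 0.25 (Ndufs5), and the smallest adjusted p of a member was 0.67. All 78 intervals at 95% held 0, with limits between -0.48 and 0.73, so no member's interval reached a doubling of the FPKM or its halving. A p that misses the threshold does not show that the groups were alike.

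**Figure D2:**
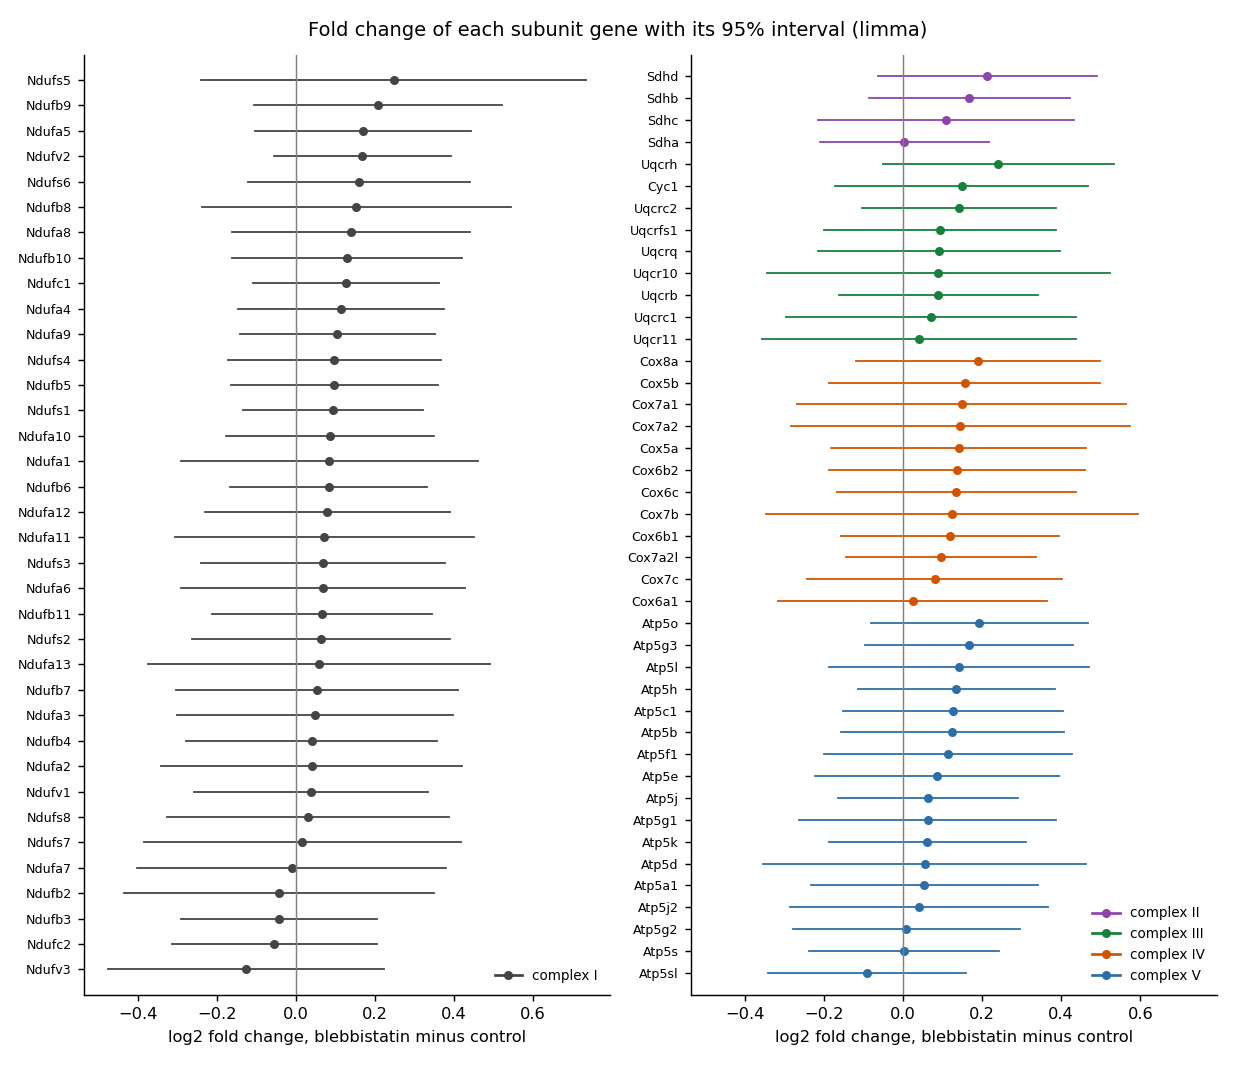
Log2 fold change of each of the 78 tested members (Blebbistatin minus Control) with its 95% interval from limma, by complex. Every interval crosses 0, and 72 of the 78 points lie above it.

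Complex II, succinate dehydrogenase, links the citric acid cycle to the chain, and all 4 of its genes were higher in Blebbistatin (median log2 fold change 0.14). Sdhd, a membrane anchor encoded on chr9:50596340-50603849, had 79.7, 77.8 and 69.7 FPKM in Blebbistatin and 76.9, 59.3 and 60.5 FPKM in Control. Control 2 and Control 3 lay below all Blebbistatin libraries and Control 1 lay among them, so the groups overlapped (log2 fold change 0.21 ± 0.12, adjusted p = 0.715 by limma). Sdhb, the iron-sulfur subunit, showed the same order, with 112, 108 and 100.6 FPKM in Blebbistatin and 109, 89.5 and 87.8 FPKM in Control (0.17 ± 0.11, adjusted p = 0.811 by limma). Sdhc, the other anchor, had 102, 95.7 and 95.3 FPKM in Blebbistatin and 113, 85.1 and 77.3 FPKM in Control, with Control 1 above every Blebbistatin library. Sdha, the flavoprotein, had 67.5, 67.5 and 61.4 FPKM in Blebbistatin and 70.2, 65.4 and 60.6 FPKM in Control. Sdha is the longest member when the transcripts of each gene are averaged by FPKM (2859 nt), though a single transcript of Ndufs1 is longer (2927 nt). Its group means were close, at 65.5 ± 3.53 FPKM in Blebbistatin and 65.4 ± 4.78 FPKM in Control (SD, n = 3 each), and its log2 fold change of 0.0029 had an interval from -0.21 to 0.22.

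Complex III passes electrons from ubiquinol to cytochrome c, and all 9 of its genes were higher in Blebbistatin (median log2 fold change 0.09). Uqcrh, the hinge protein next to cytochrome c1 (chr4:116066965-116075070), had the smallest p of all members. It had 377, 403 and 392 FPKM in Blebbistatin and 393, 294 and 313 FPKM in Control. Control 1 fell within the Blebbistatin values while Control 2 and Control 3 were the lowest, giving a log2 fold change of 0.24 ± 0.13 with an interval from -0.05 to 0.53 (limma, unadjusted p = 0.0949, adjusted p = 0.67). Cyc1, cytochrome c1 itself, had 136, 125 and 116 FPKM in Blebbistatin and 139, 105 and 99.5 FPKM in Control. The core protein Uqcrc2 had 92.0, 102 and 95.6 FPKM in Blebbistatin and 98.9, 85.3 and 79.2 FPKM in Control. In both, Control 1 was the only Control library at the Blebbistatin level.

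In complex IV, cytochrome c oxidase, all 12 tested genes were higher in Blebbistatin (median log2 fold change 0.13), including Cox6a1 at 0.02 ± 0.15. Cox8a, the most abundant of them and part of the enzyme's nuclear-encoded shell (chr19:7215158-7217616), had 482, 468 and 437 FPKM in Blebbistatin and 488, 379 and 359.9 FPKM in Control. Cox5b, the zinc-binding subunit, had 264, 272 and 239.7 FPKM in Blebbistatin and 292, 208 and 204 FPKM in Control. Cox6c, a small membrane subunit, had 262, 254 and 223 FPKM in Blebbistatin and 267, 207 and 204 FPKM in Control. For these 3 genes Control 1 was the highest of all 6 libraries and the other two Control libraries were the lowest. Log2 fold changes were 0.19 ± 0.13 for Cox8a, 0.16 ± 0.15 for Cox5b and 0.13 ± 0.13 for Cox6c (limma, adjusted p of 0.84 or higher).

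Complex I, NADH dehydrogenase, is the largest enzyme of the chain, and 31 of its 36 genes had a positive log2 fold change (median log2 fold change 0.08). Ndufv2, an iron-sulfur subunit of the NADH-oxidising module, had 46.4, 49.7 and 47.2 FPKM in Blebbistatin and 47.5, 41.2 and 38.9 FPKM in Control (0.17 ± 0.10, adjusted p = 0.727 by limma). Ndufb9, an accessory subunit of the membrane arm, had 159, 157 and 148 FPKM in Blebbistatin and 166, 122 and 118 FPKM in Control (0.21 ± 0.14, adjusted p = 0.809 by limma). Ndufa5, an accessory subunit of the arm that reaches into the matrix, had 65.0, 70.3 and 63.6 FPKM in Blebbistatin and 68.6, 58.1 and 50.9 FPKM in Control. Control 2 and Control 3 were below all Blebbistatin libraries in each of these 3 genes and Control 1 was not. Ndufa4 had 308, 329 and 296 FPKM in Blebbistatin and 325, 278 and 261 FPKM in Control. The fold changes at both ends of the range were also in this complex and carried larger errors. Ndufs5, an accessory subunit, had 103, 81.4 and 58.4 FPKM in Blebbistatin and 80.5, 65.5 and 55.1 FPKM in Control (0.25 ± 0.21), the largest SE of any member, and an exon of it overlaps BC002163 on the same strand, so the reads of these genes may not be separable. The 5 complex I genes with a negative log2 fold change were Ndufa7, Ndufb2, Ndufb3, Ndufc2 and Ndufv3, the last of these with 50.4, 59.6 and 48.3 FPKM in Blebbistatin and 68.5, 59.9 and 46.2 FPKM in Control (-0.13 ± 0.15).

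In complex V, 16 of 17 genes had a positive log2 fold change, with Atp5sl the exception (median log2 fold change 0.06). Atp5b, the catalytic beta subunit (chr10:128083307-128090388) and the most abundant member, had 666, 716 and 640.4 FPKM in Blebbistatin and 693, 624 and 544 FPKM in Control. Atp5o, which joins the catalytic head to the peripheral stalk, had 287, 281 and 262 FPKM in Blebbistatin and 281, 234 and 216 FPKM in Control. Atp5h, subunit d of that stalk, had 267, 282 and 252 FPKM in Blebbistatin and 270.4, 239 and 222 FPKM in Control. Control 1 again lay among the Blebbistatin values and the other two Control libraries below them. Log2 fold changes were 0.12 ± 0.12 for Atp5b, 0.19 ± 0.12 for Atp5o and 0.13 ± 0.11 for Atp5h (limma, adjusted p of 0.771 or higher).

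For most members the overlap involved Control 1. Relative to its mean over all 6 libraries, the median member deviated on the log2 scale by 0.08, 0.09 and -0.02 in the Blebbistatin libraries and by 0.21, -0.14 and -0.22 in the Control libraries. Medians over all genes stayed between -0.055 and 0.025 in every library. Control 1 was the highest of the 6 libraries in 55 of 78 members (70.5%), against 27.0% of all genes. Control 3 was the lowest in 58 members (74.4%), against 26.4% of all genes, and Control 2 in 18. The same 55 members were those in which Control 1 exceeded all 3 Blebbistatin libraries. The median within-group SD of members was 0.085 in Blebbistatin and 0.233 in Control on the log2 scale, and 0.064 between Control 2 and Control 3. Over all genes it was 0.105 in Blebbistatin and 0.141 in Control. Control 2 and Control 3 had the lowest median deviations in every complex. Control 1 had the highest in complexes I, III, IV and V, at up to 0.24 (complex I), and in complex II stood at 0.12, below Blebbistatin 1 at 0.14. Those of Control 3 ran from -0.20 (complex II) to -0.24 (complex IV). Summed over complex V, the genes gave 5095, 5275 and 4838 FPKM in Blebbistatin and 5554, 4533 and 4291 FPKM in Control. Complex I summed to 3637, 3583 and 3357 FPKM in Blebbistatin and 4071, 3082 and 2962 FPKM in Control.

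**Figure D3:**
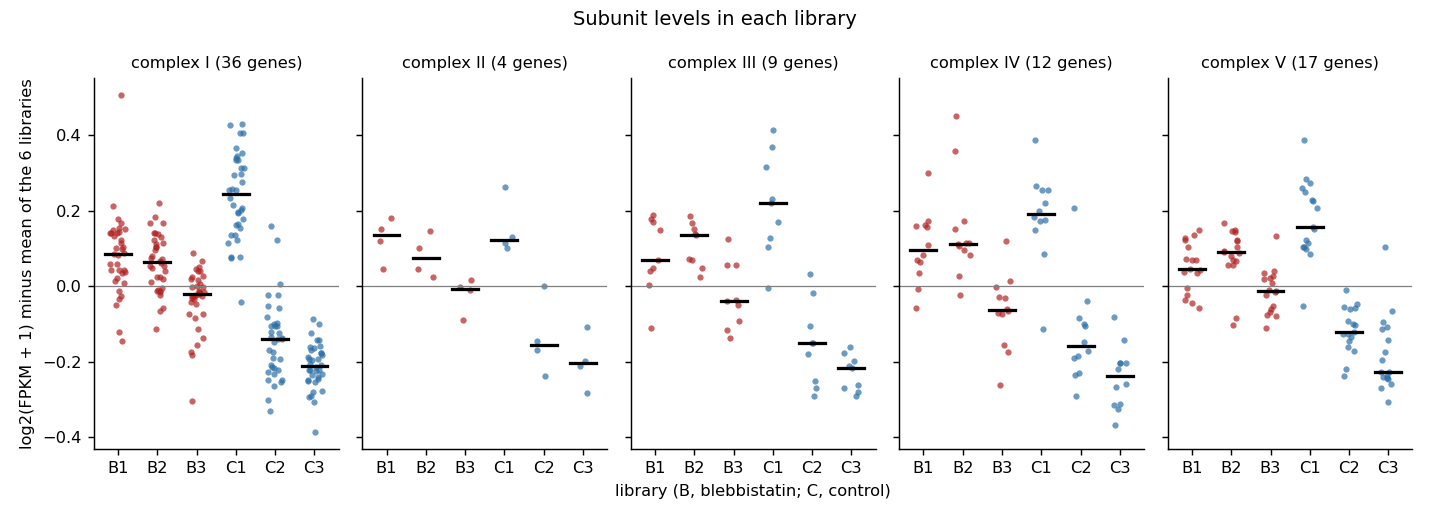
Each tested member's log2(FPKM + 1) in a library minus its average over all 6 (points), by complex and library (B, Blebbistatin; C, Control), with bars at the median. Medians of Control 1 are above 0 and those of Control 2 and Control 3 below 0 in every complex, while medians of the Blebbistatin libraries lie between 0.14 and -0.06.

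Leaving out Control 1 or Control 3 moved the result more than median-of-ratios or quantile rescaling, under which the members' median was 0.07 and 0.08. Without Control 1 the median log2 fold change of members was 0.22, with 76 of 78 members higher in Blebbistatin, against a median of 0.02 over all genes. In that fit 65 members (83.3%) lay wholly above the Control values, against 17.2% of all genes, and the other 13 still overlapped. Ndufs5 was one whose spread lay in Blebbistatin, with an SD of 22.3 FPKM in Blebbistatin and 12.8 FPKM in Control. An unadjusted p under 0.05 was then reached by 40 members (51.3%), all higher, and by 0 members after adjustment (limma, smallest adjusted p = 0.204). Of all genes 6.05% were called higher and 10.8% in either direction at the unadjusted threshold. Of the 40, 18 were in complex I, 3 in complex II, 5 in complex III, 7 in complex IV and 7 in complex V. Ndufb9 had the smallest p, with a log2 fold change of 0.36. Without Control 3 the median was 0.008 and 45 members were higher, and without Control 2 it was 0.05 and 52 were higher. Leaving out Blebbistatin 1, 2 or 3 gave medians of 0.08, 0.07 and 0.13. The median stayed at 0 or above in all 6 cases, and its size depended on which Control library was left out.

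**Figure D4:**
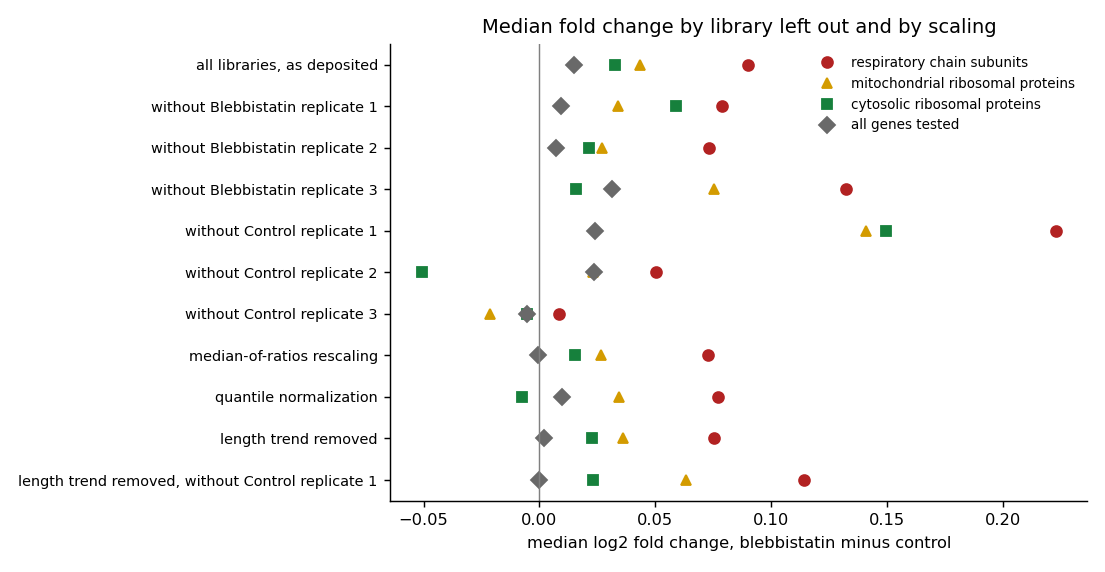
Median log2 fold change (Blebbistatin minus Control) of the respiratory chain members, mitochondrial ribosomal proteins, cytosolic ribosomal proteins and all genes tested, with each library left out and under other scalings. The members' median lies between 0.008 (without Control 3) and 0.22 (without Control 1), and some points of other sets lie on top of each other.

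Transcript length was examined next because members are short. Their median length was 686 nt and 53 of 78 (68.0%) were under 1000 nt, against a median of 2803 nt and 8.30% under 1000 nt over all genes. In Control 1 the median deviation of genes outside the list was 0.18 for transcripts under 500 nt, 0.21 from 500 to 1000 nt, 0.12 from 1000 to 2000 nt and -0.11 over 4000 nt. Control 2 showed the opposite order, with -0.17 under 500 nt and 0.09 over 4000 nt. The high values of members in Control 1 thus accompanied high values of other short transcripts. The difference between groups did not follow length in the same way. Genes outside the list had median log2 fold changes between 0.0008 and 0.03 in the 5 length classes. Members had medians of 0.08 under 500 nt (14 genes), 0.10 from 500 to 1000 nt (39 genes), 0.10 from 1000 to 2000 nt (21 genes) and 0.06 from 2000 to 4000 nt (4 genes). Across the 78 members, the fold change correlated with log2 length at Pearson r = -0.068 and Spearman rho = -0.011, given as a description because the members share libraries.

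**Figure D5:**
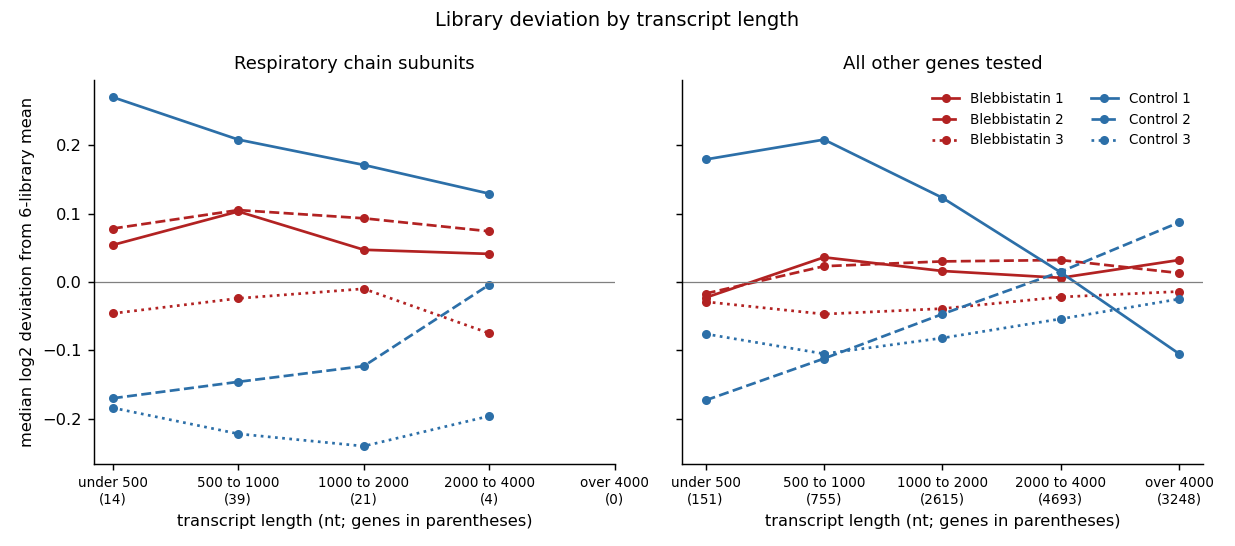
Median log2 deviation of each library from the 6-library mean by transcript length class (nt), for members on the left and for all other genes tested on the right, with the number of genes under each class. Among other genes Control 1 is at 0.18 and 0.21 in the 2 shortest classes and at -0.11 over 4000 nt, and no member is over 4000 nt.

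When the trend with length was removed from each library by loess, the members of Control 1 moved to the level of the Blebbistatin libraries. Their median deviation became 0.04, 0.07 and 0.02 in Blebbistatin and 0.02, -0.03 and -0.11 in Control. The median log2 fold change of members was then 0.08, close to the 0.09 of the deposited values, with 69 of 78 higher in Blebbistatin. An unadjusted p under 0.05 was reached by 7 members (8.97%), all higher. Of all genes 5.2% were called higher and 11.9% in either direction. The members' share was above the first of these and below the second. The 7 members were Uqcrh, Ndufb9, Sdhd, Atp5o, Sdhb, Cox8a and Ndufv2. In each the groups no longer overlapped, but these members were picked by a small p in the same fit. Their separation is therefore no separate support, and it was not counted over all genes in this fit. Uqcrh had a log2 fold change of 0.22 ± 0.067 and the smallest adjusted p of them, 0.233 (limma), so none passed. Without Control 1 and with the trend removed, an alternative added after the data were seen, the median was 0.11. In that fit 16 members (20.5%) had an unadjusted p under 0.05, all higher, again with 0 past adjustment. Of all genes 4.72% were called higher and 10.8% in either direction.

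Transcripts of the members were also compared, since 13 of the 82 had more than 1 annotated transcript. Of 95 member transcripts tested, 1 had an unadjusted p under 0.05, against 8.08% of 14460 transcripts. This was a 2769 nt transcript of Ndufs1, the largest iron-sulfur subunit of complex I, with 7.88, 5.46 and 7.03 FPKM in Blebbistatin and 4.25, 4.22 and 3.67 FPKM in Control. All Blebbistatin values were above all Control values, and the log2 fold change was 0.62 ± 0.14 (limma, adjusted p = 0.251 over all transcripts). The transcript was picked by its small p, so this separation is no separate support. As a share of the gene's FPKM it was 22.2%, 14.9% and 20.0% in Blebbistatin and 11.6%, 12.1% and 12.5% in Control. It was the 1 of 25 member transcripts with an unadjusted p under 0.05 in the test of shares, against 4.56% of 4997 transcripts (limma, adjusted p = 0.975). Shares of transcripts in FPKM tables are estimates from reads that transcripts have in common, and an exon of Ndufs1 overlaps Ino80dos on the opposite strand.

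Other genes of mitochondrial metabolism were set beside the members by counts. None of their genes passed an adjusted p of 0.05 with all 6 libraries and no block. The 8 tested subunits outside the symbol rule had a median log2 fold change of 0.09, with 5 higher in Blebbistatin. Among them Cycs, the electron carrier cytochrome c, had 23.5, 26.6 and 23.3 FPKM in Blebbistatin and 22.0, 23.8 and 18.3 FPKM in Control, and Usmg5, a small ATP synthase subunit, had 246, 227 and 213 FPKM in Blebbistatin and 239.9, 179 and 183 FPKM in Control. The groups overlapped for both. Enzymes of the citric acid cycle and pyruvate dehydrogenase had the same median as members, 0.09, with 18 of 20 higher. Pdhx, a structural protein of pyruvate dehydrogenase, had 10.8, 10.4 and 10.05 FPKM in Blebbistatin and 9.45, 9.31 and 8.70 FPKM in Control, without overlap (0.17 ± 0.08, adjusted p = 0.593 by limma). Mpc1, a pyruvate carrier, had 12.7, 15.8 and 13.1 FPKM in Blebbistatin and 14.2, 9.92 and 8.69 FPKM in Control, where Control 1 again overlapped.

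Mitochondrial ribosomal proteins had a median of 0.04 (58 of 76 higher), import proteins 0.06 (17 of 21) and assembly factors 0.05 (27 of 41). In the mitochondrial ribosome the smallest p-values belonged to Mrps18c of the small subunit and Mrpl47 of the large one, both with a log2 fold change of 0.22 ± 0.10. Among import proteins they belonged to Timm17a, of the inner membrane translocase, at 0.14 ± 0.12 and Timm9, a chaperone between the membranes, at 0.13 ± 0.09. Among assembly factors they belonged to Ndufaf5, which serves complex I, at 0.20 ± 0.11 and Cox10, a haem synthesis enzyme for complex IV, at 0.16 ± 0.09. The adjusted p of these 6 genes was 0.554 or higher (limma). Without Control 1 the median was 0.14 for mitochondrial ribosomal proteins, 0.16 for import proteins and 0.07 for assembly factors, against 0.22 for members. Cytosolic ribosomal proteins, whose transcripts are also short, had a median of 0.03 (61 of 81 higher) with all libraries and 0.15 without Control 1. Rps27, of the small subunit, had 7.83, 7.14 and 5.11 FPKM in Blebbistatin and 44.6, 6.05 and 43.6 FPKM in Control, with Control 2 at the Blebbistatin level (-1.68 ± 0.64, adjusted p = 0.426 by limma). Without Control 2 it passed, at -2.57 with an adjusted p of 0.00823 (limma). Rpl26, of the large subunit, had a log2 fold change of -0.25 ± 0.21. Both belong to families with many pseudogenes, so their values are uncertain. Glycolysis differed in sign, with a median of -0.07 and 4 of 16 genes higher in Blebbistatin, and 0.01 without Control 1. Hk1, which phosphorylates glucose, had 11.2, 11.6 and 12.1 FPKM in Blebbistatin and 14.0, 13.1 and 12.5 FPKM in Control (-0.17 ± 0.08, adjusted p = 0.635 by limma), and Pfkl, a phosphofructokinase, had a log2 fold change of -0.27 ± 0.16.

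Regulators of mitochondrial biogenesis had a median of 0.07, with 15 of 19 higher. Ppargc1b, a coactivator of respiratory genes, had 1.60, 1.20 and 1.13 FPKM in Blebbistatin and 0.706, 0.891 and 0.801 FPKM in Control. Polg, the polymerase of the mitochondrial genome, had 28.5, 28.0 and 26.9 FPKM in Blebbistatin and 32.3, 32.7 and 32.3 FPKM in Control. Both separated the groups in all 6 libraries, Ppargc1b higher in Blebbistatin (0.36 ± 0.12) and Polg lower (-0.22 ± 0.08). Of all genes 7.48% were wholly higher and 6.8% wholly lower, and these genes were picked for the smallest p of their list. Neither passed the adjusted threshold (limma, adjusted p = 0.368 and 0.371). Ppargc1b averaged 1.05 FPKM, near the filter at 1 FPKM, and its Control values were below that filter.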

How the data were processed

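The authors deposited FPKM values per gene and per transcript for 6 libraries. Libraries were made with a TruSeq RNA kit, per the labels' protocols. TopHat2 2.0.13, Bowtie2 2.2.3, Cufflinks 2.2.1 and build mm10 are named in the submitters' processing notes. The labels do not state whether strand was used. The deposited tables also hold transcript lengths and coordinates, which were used as they stand. Columns headed BB were read as blebbistatin, and the column of each group without a number as replicate 1.

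FPKM is no count, so genes with a mean of at least 1 FPKM were tested by limma (version 3.58.1, R 4.3.3, trended variance, Blebbistatin minus Control) after a log2 transform with a pseudocount of 1. Fold changes on this scale understate those of low genes. The p-values were adjusted by Benjamini-Hochberg over all genes tested, with a threshold of 0.05. Transcripts and transcript shares were tested likewise. Transcript length is the FPKM-weighted mean over a gene's transcripts, and the loess span was 0.5. The code was checked on simulated data.

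Members and gene lists were chosen with earlier results of these data known. Values per library are given for the 3 members of smallest p and the most abundant member of each complex, all Sdh genes and the tissue-type paralogs, for the 2 genes of smallest p in other lists (some by fold change only), and for the member transcript past unadjusted p 0.05 in the test of shares. Ndufs5 and Ndufv3 were added after their values were seen. Other lists were respiratory assembly factors, mitochondrial and cytosolic ribosomal proteins, mitochondrial import, the citric acid cycle, glycolysis, biogenesis regulators and cell type markers.

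Alternatives were another pseudocount (0.1 or 5), no minimum or 5 FPKM, median-of-ratios or quantile rescaling, removal of the length trend, limma's array weights, a replicate block and each library left out.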

Additional observations from a re-analysis of the deposited data

How the results depend on the processing

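No member passed an adjusted p of 0.05 under any alternative (limma). The median log2 fold change of members was between 0.07 and 0.17 under the alternatives that kept all 6 libraries, and between 0.008 and 0.22 with a library left out (0.047 to 0.114 with the length trend removed as well). That range was -0.004 to 0.21 in complex I, 0.052 to 0.27 in complex II, 0.005 to 0.23 in complex III, 0.03 to 0.26 in complex IV and 0.02 to 0.21 in complex V. Members higher in Blebbistatin numbered 45 to 76, and members at an unadjusted p under 0.05 numbered 0 to 40 (1 to 16 with the trend removed). With all libraries that last count was 0 on the deposited values. It was 3 (3.85%) after quantile normalization, against 10.3% of all genes in either direction. With the length trend removed by either measure of length it was 7 (8.97%), against 11.9% and 11.8%. With array weights it was 10 (12.8%), against 11.6%. All these members were higher. Of the 11540 genes, 568 were called higher after quantile normalization, 600 and 599 with the trend removed, and 711 with array weights. The 9 genes of the whole table past the adjusted threshold became 1 without the filter, 27 at a minimum of 5 FPKM, 2 after median-of-ratios rescaling, 14 after quantile normalization, 19 with the trend removed (26 by longest transcript), 57 with array weights and 1 to 13 with a library left out (1 to 7 with the trend removed). Transcripts past it, 1 in all, were 2 at 5 FPKM and 1 to 11 with a library left out, and transcript shares 0 to 2. Member transcripts at an unadjusted p under 0.05, 1 in all, were 2 at 5 FPKM and 1 to 43 with a library left out, and the Ndufs1 share was lost without Blebbistatin 1, Control 1 or Control 2 (0 to 1).

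The labels do not say that replicate numbers pair the libraries. Deviations of same-numbered libraries correlated at 0.182, 0.094 and 0.253 over all genes, which was not above 0.1 in every pair, and at 0.620, 0.622 and 0.528 over the members, and every library correlated best with its own number. With the replicate block 144 genes passed, and 296 with the length trend removed as well. Of members 2 (2.56%) and 18 (23.1%) then had an unadjusted p under 0.05, all of them higher, and 0 an adjusted one. Of all genes 16.3% and 21.7% were called in either direction. Called higher were 925 and 1134 of the 11540 genes. Under the block 4 member transcripts had an unadjusted p under 0.05. Of the other lists Ndufa4l2, a paralog of Ndufa4, passed under the block (log2 fold change -0.64, adjusted p = 0.048 by limma, and 0.0474 with the trend removed). Ndufa4l2 had 0.043, 2.21 and 0.044 FPKM in Blebbistatin and 0.643, 3.81 and 0.688 FPKM in Control, mostly below 1 FPKM. The groups overlapped, and without the block its adjusted p was 0.894 (limma). With all 6 libraries and no block, the members' SE was 0.093 to 0.212 on the log2 scale. Differences larger than the SE were also not resolved, such as that of Uqcrh at 0.24 ± 0.13 (limma, unadjusted p = 0.0949). By the estimated counting errors, which may be too low for short members, depth was not the limit except in the lowest members.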
